A study of Mus musculus with 14 samples.

Results

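The genes described here encode the pore-forming subunits of voltage-gated potassium channels (Kv) and voltage-gated calcium channels (Cav). They were listed by name, 29 Kv genes and 9 Cav genes, with earlier results of these data known. All 38 had at least 1 H3K27me3 peak within 5 kb of the gene body, and all were tested among the 16313 protein-coding genes with such a peak. Having a peak, and the levels and start-site shares given below, may therefore depend on that choice. Together they held 327 of the 74458 peaks, and 18 of these peaks also lay within 5 kb of another protein-coding gene. H3K27me3 was mapped by Cut&Tag, which tethers the transposase Tn5 to an antibody on chromatin, in mouse embryonic stem cells (mESCs) kept with leukaemia inhibitory factor on CD1 feeder cells. There were 3 libraries from cells with a deletion at the Hoxa cluster, 2 from cells with a deletion at Wnt6 and 2 from cells with a deletion at Hmx1. The cells share an F1 hybrid background of 129/Sv and C57BL/6, and no library of unedited cells was in the table, so every group carries a deletion and each deletion was compared with the other 2 pooled. Clones are not named in the labels and the study's text refers to a clone per deletion, so that deletion and clone cannot be told apart and p-values measure only the spread between these libraries.

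Totals ranged from 6016500 to 36563541 counts per library, and the lowest summed count of a channel gene was 452, for Kcnh4 in the smallest library. The deleted stretches were located in these same counts, as the longest run of peaks nearly empty in that deletion alone. They kept 0.133% (Hoxa, chromosome 6), 0.530% (Wnt6, chromosome 1) and 0.269% (Hmx1, chromosome 5) of the signal of the other deletions. Such low shares follow from that definition, and distances in Mb below are measured from these runs. The median level over 8 pluripotency genes with a peak, active in mESCs, was 0.601 CPM per kb of gene span, against 17.7 over 10 classical Polycomb targets. Genes of fibroblasts, the kind of cell used as feeder, had a median of 4.89 over 5 genes. None of these 5 was at 0, their summed level ran from 668 to 689 CPM in the Hoxa, 626 to 681 in the Wnt6 and 672 to 677 in the Hmx1 libraries, and 1 of 5, Vim, was called in the Hoxa deletion, higher.

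As background, Kv channels open when the membrane depolarises and carry potassium out of the cell, which ends the action potential and sets firing rate, whereas Cav channels let calcium in and couple voltage to secretion, contraction and transcription. Both families are best known from neurons, muscle and endocrine cells, and their expression in these mESCs was not examined here. H3K27me3, the trimethyl mark that Polycomb repressive complex 2 places on histone H3, covers many developmental and tissue-restricted genes in mESCs, mostly over stretches of DNA dense in CG dinucleotides (CpG islands).

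The sequence before the start sites is shown first, since the mark sits there in most of these genes. RefSeq start sites (GRCm38.p6) were matched for 27 of the 38 genes, with 35 start sites in all, and each window holds the 250 bases before the start on the strand of the gene. All 35 windows held the letters CG at least once, which reads the same on both strands, as did 93.4% of the windows of all protein-coding genes. Of the 35 windows, 30 overlapped an H3K27me3 peak (85.7%), against 54.3% of 21263 windows of all protein-coding genes and 70.6% of the 16333 windows of genes with a peak within 5 kb. The windows in a peak held a median of 15 CG and the 5 windows outside held a median of 2, against 17 and 3 over all protein-coding genes. These are descriptions of the same windows and carry no test.

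Cacna1c, the L-type calcium channel of heart and brain, has 3 start sites in the table and shows this within 1 gene. The 3 windows are printed from the start nearest the end of the gene to the one farthest from it, with every CG in capitals.
Cacna1c, chr6:118757975-118758224, minus strand: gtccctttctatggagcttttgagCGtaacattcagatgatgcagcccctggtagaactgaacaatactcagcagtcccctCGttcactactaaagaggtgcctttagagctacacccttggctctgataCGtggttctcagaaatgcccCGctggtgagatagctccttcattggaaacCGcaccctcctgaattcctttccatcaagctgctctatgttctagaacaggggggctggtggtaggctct
Cacna1c, chr6:119108496-119108745, minus strand: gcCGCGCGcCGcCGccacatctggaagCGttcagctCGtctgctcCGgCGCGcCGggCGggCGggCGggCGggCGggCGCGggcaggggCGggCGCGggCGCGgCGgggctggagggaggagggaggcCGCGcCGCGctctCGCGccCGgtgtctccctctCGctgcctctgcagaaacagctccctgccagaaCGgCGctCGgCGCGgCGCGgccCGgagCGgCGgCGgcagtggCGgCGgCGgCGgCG
Cacna1c, chr6:119196410-119196659, minus strand: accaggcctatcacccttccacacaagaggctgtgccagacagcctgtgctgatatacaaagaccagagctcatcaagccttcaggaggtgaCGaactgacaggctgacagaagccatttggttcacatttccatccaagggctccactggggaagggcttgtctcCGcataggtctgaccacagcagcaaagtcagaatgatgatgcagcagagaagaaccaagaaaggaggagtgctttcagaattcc
The window with 48 CG lay in a peak with a mean of 94.6 CPM over the 7 libraries. The windows with 5 and 2 CG lay 6.45 kb and 20.8 kb from the nearest peak. Cacna1d, another L-type channel gene, had the same order, with 50 CG in a window inside a peak of 69.3 CPM and 2 CG in a window 11.3 kb from its nearest peak.

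The next windows belong to Kcna3, a Shaker-type channel known from T cells, and Kcnf1, a silent subunit that conducts only together with Shab-type subunits. They are shown because both genes are among the 4 with the highest level per kb of gene span while their windows differ in CG (capitals).
Kcna3, chr3:107035912-107036161, plus strand: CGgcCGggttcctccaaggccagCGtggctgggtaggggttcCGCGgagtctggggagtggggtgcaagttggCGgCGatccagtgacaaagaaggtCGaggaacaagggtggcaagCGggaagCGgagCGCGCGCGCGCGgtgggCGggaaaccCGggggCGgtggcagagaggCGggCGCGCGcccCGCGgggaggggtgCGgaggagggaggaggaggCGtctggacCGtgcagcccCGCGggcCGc
Kcnf1, chr12:17176889-17177138, minus strand: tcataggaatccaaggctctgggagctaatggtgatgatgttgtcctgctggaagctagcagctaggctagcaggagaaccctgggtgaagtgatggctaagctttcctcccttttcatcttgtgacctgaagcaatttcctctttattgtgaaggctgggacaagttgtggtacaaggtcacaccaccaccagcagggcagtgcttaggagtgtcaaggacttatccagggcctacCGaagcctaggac
Kcna3 had 31 CG in its window and 178 CPM in its only peak, and Kcnf1 had 1 CG and 199 CPM in its only peak. The 4 start-site windows of Kcnc2, a Shaw-type channel of fast-spiking neurons, held 2 to 5 CG and all lay in a peak of 210 CPM (209.9). The peaks of Kcnf1 and Kcnc2 extend past the start into the gene, and the CG of those bases was not counted. A window with few CG therefore does not show that its peak lies on DNA with few CG. Across the 27 genes the number of CG in the richest window and the summed level had a Spearman rho of 0.156, a description over genes that share libraries. That level sums all peaks of a gene, including those away from the window.

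**Figure D1:**
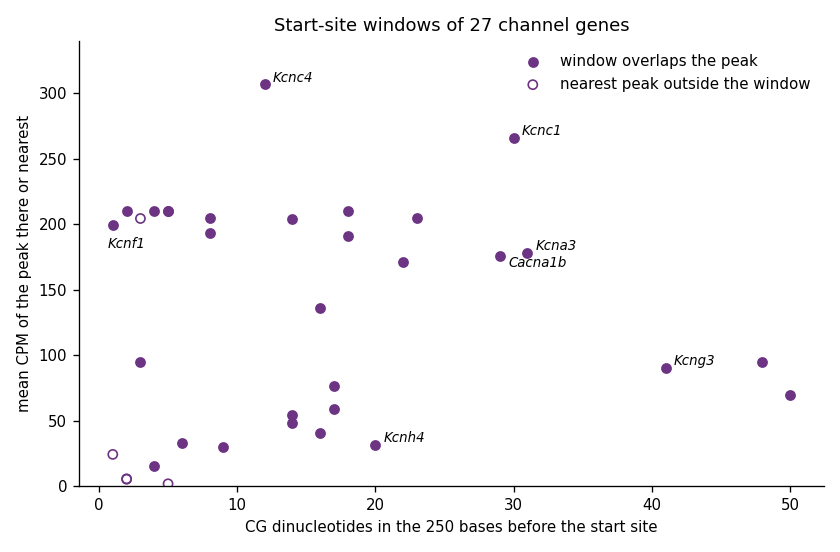
Each point is 1 of 35 start-site windows of 27 channel genes, plotted by its number of CG dinucleotides (x axis) and the mean CPM over 7 libraries of the peak it overlaps, or of the nearest peak if it overlaps none (y axis). Filled points overlap a peak, the 5 open points do not and hold 5 CG or fewer, and Kcnf1 at 1 CG and Kcna3 at 31 CG have peaks of 199 and 178 CPM.

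The last windows belong to Kcng3, a silent Kv subunit, and Kcnh4, a channel of the ether-a-go-go family found in brain. They are shown because these genes had the lowest and the highest log2 fold change in the Hoxa deletion, described further on.
Kcng3, chr17:83631896-83632145, minus strand: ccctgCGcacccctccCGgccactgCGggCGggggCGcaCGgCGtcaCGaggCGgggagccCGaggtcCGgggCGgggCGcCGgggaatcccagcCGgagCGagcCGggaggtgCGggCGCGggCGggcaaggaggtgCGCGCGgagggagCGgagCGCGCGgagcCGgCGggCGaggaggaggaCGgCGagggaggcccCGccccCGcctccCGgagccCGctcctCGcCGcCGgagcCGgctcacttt
Kcnh4, chr11:100759779-100760028, minus strand: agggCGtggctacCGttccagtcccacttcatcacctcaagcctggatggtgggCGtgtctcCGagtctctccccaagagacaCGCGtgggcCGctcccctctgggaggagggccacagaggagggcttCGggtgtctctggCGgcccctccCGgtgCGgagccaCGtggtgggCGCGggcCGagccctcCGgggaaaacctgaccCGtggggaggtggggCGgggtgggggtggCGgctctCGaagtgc
The Kcng3 window held 41 CG and the Kcnh4 window 20 (capitals), and both lay in a peak.

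The level of a gene was taken as CPM (counts relative to the library total, scaled by TMM factors) summed over its peaks, and levels were compared between genes only per kb of gene span, which is the gene body with 5 kb on each side. The channel genes had summed levels of 71.2 (Kcna4) to 503 CPM (Kcng2), and together they took 0.809% to 0.883% of each library. Per kb of gene span their median was 3.34 CPM, against 0.420 over all genes with a peak, and 26 of the 38 lay above the 75th percentile of all genes. The 29 Kv genes had a median of 5.33 CPM per kb and 3 peaks, and the 9 Cav genes had a median of 2.17 CPM per kb and 21 peaks. Level per kb was lower in longer genes (Spearman rho -0.886 over 38 genes, against -0.335 over all genes with a peak), in part because span is the divisor, and the summed level had a rho of 0.282 with span.

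The 4 highest levels per kb were those of compact genes. Kcna3 stood at 14.9 CPM per kb, with summed levels of 187, 168 and 177 CPM in the Hoxa libraries, 174 and 162 in the Wnt6 libraries and 186 and 193 in the Hmx1 libraries. Kcns2, a silent subunit, stood at 13.6 CPM per kb, with 235, 219.6 and 221 CPM in the Hoxa, 227 and 193 in the Wnt6 and 220.4 and 207 in the Hmx1 libraries. In Kcns2 the libraries of all deletions overlapped. In Kcna3 the Hoxa libraries overlapped those of each other deletion, while the Wnt6 libraries lay below the Hmx1 libraries. The gene bodies span 1.97 kb (Kcna3) and 6.05 kb (Kcns2).

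Kcnf1 stood at 13.5 CPM per kb, with 218, 202 and 204 CPM in the Hoxa, 199 and 175 in the Wnt6 and 195 and 199 in the Hmx1 libraries. Kcns1, a silent subunit known from sensory neurons, stood at 12.5 CPM per kb, with 238, 217 and 213 CPM in the Hoxa, 219.9 and 201 in the Wnt6 and 219.6 and 228 in the Hmx1 libraries. Per kb of gene span, the ranges of the 7 libraries overlapped between each of these 4 genes and the next in order.

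The 3 lowest levels per kb were those of long genes. Kcnh1, an ether-a-go-go channel gene, stood at 0.303 CPM per kb over a gene body of 321 kb, and Kcnd2, the Shal-type channel of the transient outward current, stood at 0.350 over 514 kb. Kcnb2, a Shab-type delayed rectifier, stood at 0.375 CPM per kb, with 174, 164 and 159.7 CPM in the Hoxa, 175 and 155 in the Wnt6 and 168 and 177 in the Hmx1 libraries. In each of them 1 peak carried most of the mark, since it held 76.2% of the summed level of Kcnh1, 93.2% of that of Kcnd2 and 86.5% of that of Kcnb2. Over all channel genes, a single peak held more than 85% of the summed level in 19 of 38, and the strongest single peak was that of Kcnc4, a Shaw-type channel, at 307 CPM over 2940 bp (chr3:107457811-107460751).

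**Figure D2:**
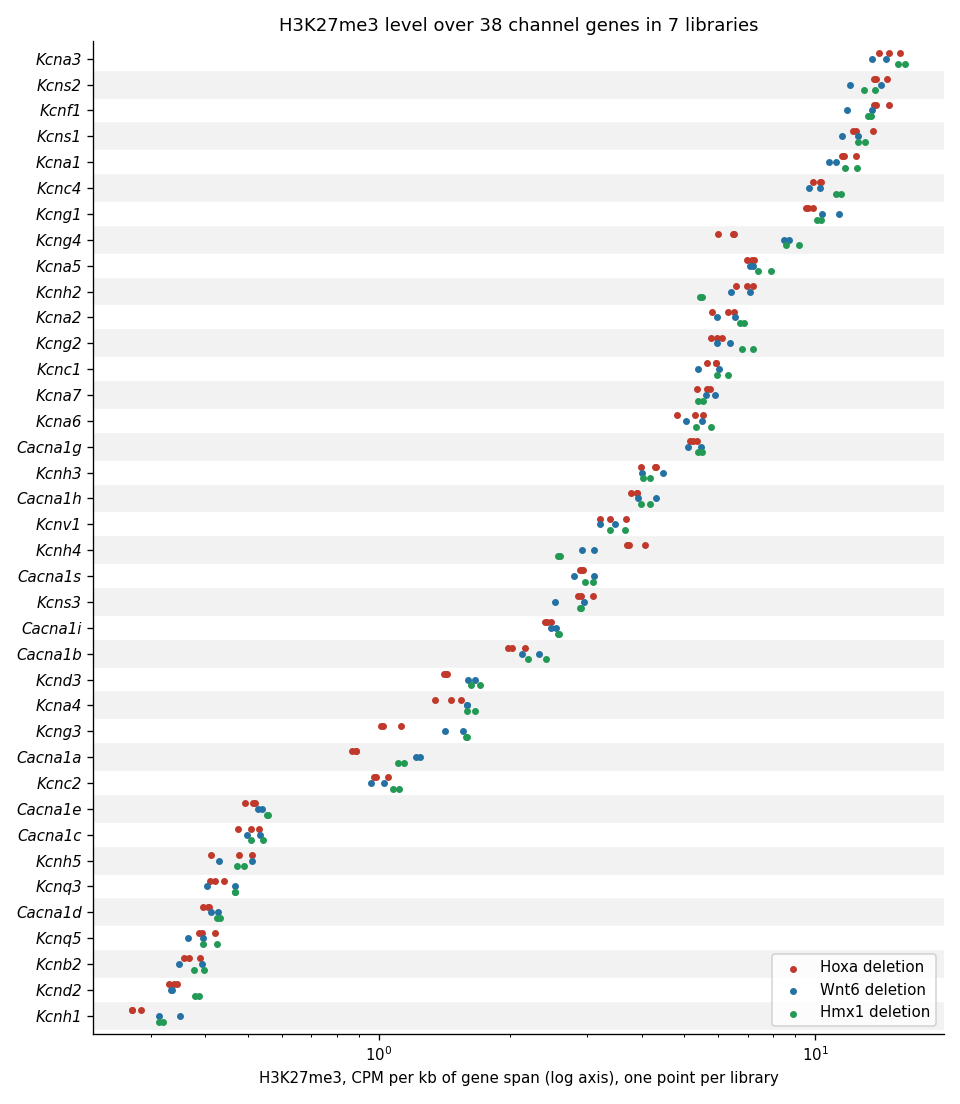
Each row is 1 of the 38 channel genes, and each point is 1 library (x axis, CPM per kb of gene span on a log axis) coloured by deletion. Levels run from 0.303 for Kcnh1 to 14.9 for Kcna3, and within most rows the 7 libraries lie close together.

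The share of the summed level in the strongest peak ran from 18.6% to 70.9% over the 9 Cav genes and from 26.2% (Kcnh2) to 100% over the 29 Kv genes, a difference that was not tested. Cacna1a, the P/Q-type channel of presynaptic terminals, had 32 peaks and its strongest held 18.6% of the sum. Cacna1e, the R-type channel, had 23 peaks and 26.5% in the strongest, and Cacna1i, a T-type channel of thalamic neurons, had 21 peaks and 28.6%. Cacna1b, the N-type channel, held 47.7% in 1 of 15 peaks, Cacna1g, a T-type channel, 46.8% in 1 of 17, Cacna1s, the L-type channel of skeletal muscle, 53.6% in 1 of 11 and Cacna1h, a T-type channel, 70.9% in 1 of 13. The L-type genes Cacna1c and Cacna1d had 30.5% in 1 of 27 and 36.2% in 1 of 24 peaks.

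The highest library exceeded the lowest by a median of 1.18-fold over the 38 genes (1.07 to 1.58), against 1.20-fold over the 3951 genes that reach at least the summed level of the lowest channel gene, and 1.48-fold over all genes with a peak. The coefficient of variation between libraries of a deletion had a median of 4.17% (Hoxa, n = 3), 5.63% (Wnt6, n = 2) and 2.62% (Hmx1, n = 2).

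In the Hoxa deletion, 6 of the 38 channel genes differed from the other deletions (edgeR, adjusted p under 0.05, any fold). Lower were Kcng3, Kcng4, Cacna1a, Kcnh1 and Kcnd3, and higher was Kcnh4. This is 15.8% of the channel genes, against 17.2% of all genes tested and 19.1% of the 3951 genes of at least the level of the lowest channel gene. For lower calls the shares were 13.2% of channel genes against 5.44% of all genes and 8.99% of those 3951. For higher calls they were 2.63% against 11.8% of all genes. The lower calls include Kcng4 and Cacna1a on chromosome 8, where 68.8% of the genes tested were called. Shares of lower calls without that chromosome were not computed. No channel gene passed an absolute log2 fold change of 1 as well, which 0.533% of all genes did. The median log2 fold change of the channel genes was -0.05, against 0.06 over all genes and -0.01 over the 3951.

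Kcng3 had the lowest log2 fold change. Its only peak (chr17:83630740-83632943, over the start site printed above) had 68.8, 69.4 and 76.4 CPM in the Hoxa libraries, 106 and 96.2 in the Wnt6 libraries and 108.4 and 107.9 in the Hmx1 libraries. The Hoxa libraries were the 3 lowest and did not overlap the other 4. The means were 71.5 ± 4.25 CPM (SD, n = 3) in the Hoxa, 101.1 ± 6.92 (SD, n = 2) in the Wnt6 and 108.1 ± 0.316 (SD, n = 2) in the Hmx1 deletion, and the log2 fold change was -0.54 ± 0.07 (SE, 95% interval -0.69 to -0.39, edgeR adjusted p 1.64e-07). The gene was called lower in all 22 alternative settings, with adjusted p from 7.3e-16 to 1.34e-05.

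Kcng4, a silent subunit like Kcng3, and Cacna1a both lie on chromosome 8, and both fell with the genes around them. Kcng4 had summed levels of 141, 131 and 142 CPM in the Hoxa, 190.4 and 185.4 in the Wnt6 and 187 and 200.5 in the Hmx1 libraries (log2 fold change -0.47 ± 0.07 SE, edgeR adjusted p 4.2e-07). Cacna1a had 277, 271 and 276 CPM in the Hoxa, 388 and 379 in the Wnt6 and 356 and 344 in the Hmx1 libraries (log2 fold change -0.42 ± 0.06 SE, edgeR adjusted p 2.01e-06). In both genes the Hoxa libraries were the lowest 3 and did not overlap the others. All 3 peaks of Kcng4 and 31 of 32 peaks of Cacna1a had negative log2 fold changes, and 3 and 11 of them were called at any fold. The shares over all peaks of chromosome 8 were not computed. The median log2 fold change of the 910 genes tested on chromosome 8 was -0.50, with 68.8% of them called, whereas the medians of the other chromosomes ran from 0.04 to 0.13. With the median of each chromosome removed, the log2 fold change was 0.02 for Kcng4 (edgeR adjusted p 0.897) and 0.07 for Cacna1a (0.492), so neither call held and both signs turned. In the other 21 alternatives both calls held. Chromosome 8 as a whole and these channel genes cannot be told apart here. Without Kcng4 and Cacna1a, 4 of 36 channel genes were called. By chromosome, 9.70% (chromosome 2) to 21.3% (chromosome 6) of genes were called outside chromosome 8, leaving out chromosome Y with 1 gene.

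Kcnd3, the Shal-type channel of the transient outward current of heart and neurons, lies on chromosome 3 and had 331, 333 and 327 CPM in the Hoxa, 386 and 372 in the Wnt6 and 377 and 395 in the Hmx1 libraries. The Hoxa libraries were again the lowest 3 without overlap (log2 fold change -0.21 ± 0.06 SE, edgeR adjusted p 0.0112). The start-site peak (chr3:105450794-105453410), with 53.1% of the sum, had 186, 188 and 184 CPM in the Hoxa, 200.3 and 177 in the Wnt6 and 196 and 206 in the Hmx1 libraries, which overlapped (log2 fold change -0.07, edgeR adjusted p 0.681). The other 28 peaks summed to 145, 146 and 142 CPM in the Hoxa, 186 and 194 in the Wnt6 and 181 and 189 in the Hmx1 libraries, which did not. Of these 28 peaks 26 had negative log2 fold changes and 5 had an adjusted p under 0.05 at any fold, among them chr3:105458801-105460188 about 6.91 kb from the start-site window (log2 fold change -0.35, edgeR adjusted p 0.0318). The split into start-site and other peaks was looked at after the values were seen, and the difference between them was not tested. The call of Kcnd3 was lost without Hoxa replicate 3 (edgeR adjusted p 0.0702), without Hmx1 replicate 2 (adjusted p 0.0581) and against the Wnt6 deletion alone (0.0969), and over its alternatives the adjusted p ran from 2.7e-05 to 0.0969.

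Kcnh1 had 89.9, 90.03 and 94.02 CPM in the Hoxa, 116 and 104 in the Wnt6 and 106 and 103.9 in the Hmx1 libraries (log2 fold change -0.23 ± 0.07 SE, edgeR adjusted p 0.0159). The Hoxa libraries lay below the others, and the start-site peak (chr1:192190428-192192592) was at 68.7 ± 3.52 CPM (SD, n = 3) in them and at 82.4 ± 5.52 (SD, n = 4) in the other libraries. None of its 7 peaks had an adjusted p under 0.05. The call of the gene was lost without Hoxa replicate 1 (edgeR adjusted p 0.0683) or Hoxa replicate 2 (adjusted p 0.091), the alternatives ranging from 1.16e-04 to 0.091.

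Kcnh4 was the only channel gene called higher in the Hoxa deletion. It had 111, 110.4 and 121 CPM in the Hoxa, 86.9 and 92.4 in the Wnt6 and 76.4 and 77.4 in the Hmx1 libraries (log2 fold change 0.45 ± 0.07 SE, 95% interval 0.30 to 0.60, edgeR adjusted p 6.82e-06). The Hoxa libraries were the highest 3, the Wnt6 libraries came next and the Hmx1 libraries were lowest. The higher level lay mostly at the start. The peaks chr11:100758776-100760067 and chr11:100761656-100762228 had log2 fold changes of 0.70 and 0.74 (edgeR adjusted p 6.69e-05 and 2.68e-04), and both also lie within 5 kb of Hcrt, the gene of the neuropeptide precursor of the orexins, so that the genes cannot be told apart there. These peaks summed to 53.1, 54.6 and 57.1 CPM in the Hoxa, 38.9 and 39.3 in the Wnt6 and 23.8 and 29.9 in the Hmx1 libraries. The other 3 peaks summed to 58.2, 55.7 and 63.9 CPM in the Hoxa libraries and to 47.4 to 53.1 in the other 4. With every peak near another gene left out, the log2 fold change of Kcnh4 was 0.24 and the call was lost (edgeR adjusted p 0.0541), while the other alternatives kept it, down to 1.53e-09.

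**Figure D3:**
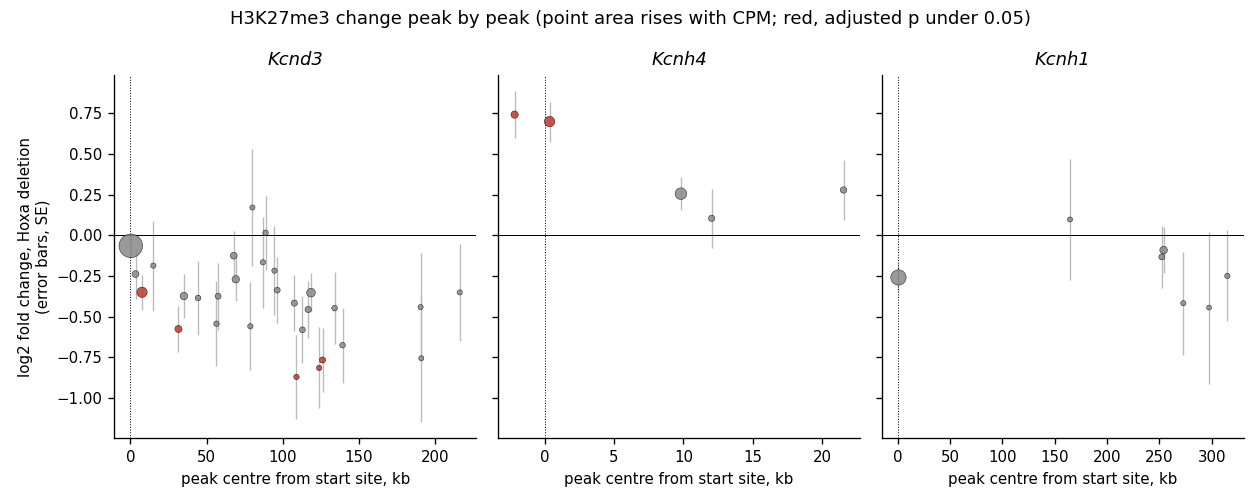
Each point is 1 peak of Kcnd3 (29 peaks), Kcnh4 (5) or Kcnh1 (7), placed by the distance of its centre from the start site in kb (x axis) and by its log2 fold change in the Hoxa deletion against the other deletions (y axis, error bars SE), with area rising with CPM and peaks with an adjusted p under 0.05, at any fold, in red. The large start-site peak of Kcnd3 lies near 0 while most of its other peaks lie below, and the red peaks of Kcnh4 lie next to its start site.

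Chromosome 6, which carries the Hoxa deletion, holds 5 channel genes, 30.4 to 74.4 Mb from the deleted stretch. None was called, with log2 fold changes of -0.09 to 0.04 and edgeR adjusted p of 0.472 to 0.782. Cacna1c had 330.1, 316 and 295 CPM in the Hoxa, 331 and 309 in the Wnt6 and 316 and 336 in the Hmx1 libraries. Kcnd2 had 181, 178 and 173 CPM in the Hoxa, 176 and 175 in the Wnt6 and 199 and 203 in the Hmx1 libraries. The groups overlapped in Cacna1c, whereas in Kcnd2 the Hmx1 libraries were the highest 2.

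The other 3 are Shaker-type genes that lie next to each other. Kcna1, mutated in episodic ataxia, had 240.4, 223 and 225 CPM in the Hoxa, 216 and 208 in the Wnt6 and 226 and 242 in the Hmx1 libraries. Kcna6 had 235, 205 and 225 CPM in the Hoxa, 234.5 and 215 in the Wnt6 and 226 and 245 in the Hmx1 libraries. Kcna5, the channel of the ultrarapid current of the atrium, had 90.9, 94.2 and 92.99 CPM in the Hoxa, 92.3 and 93.6 in the Wnt6 and 96.4 and 103 in the Hmx1 libraries. In Kcna6 the deletions overlapped, in Kcna1 the Wnt6 libraries lay below the rest, and in Kcna5 the Hmx1 libraries lay just above the rest.

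The 32 channel genes that were not called in the Hoxa deletion had log2 fold changes of -0.15 to 0.18. Their 95% intervals all lay within 0.5 on either side of 0, the widest reaches being -0.30 (Kcna4) and 0.33 (Kcnh2). Of these 32 intervals 3 did not include 0, with Kcnh2 above it and Kcng2 and Cacna1b below. The share of such intervals over all genes was not computed. By class, no gene was called among the 7 Shaker-type, 3 Shaw-type, 1 Shab-type and 2 KCNQ-type Kv genes or the 3 L-type and 3 T-type Cav genes. The called genes were 1 of 2 Shal-type, 2 of 9 silent subunits, 2 of 5 of the ether-a-go-go family and 1 of the 3 P/Q-, N- and R-type Cav genes. Over all genes tested the share was 17.2%, and classes this small allow no contrast. Kcng4, a silent subunit, and Cacna1a, the called Cav gene, lie on chromosome 8.

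**Figure D4:**
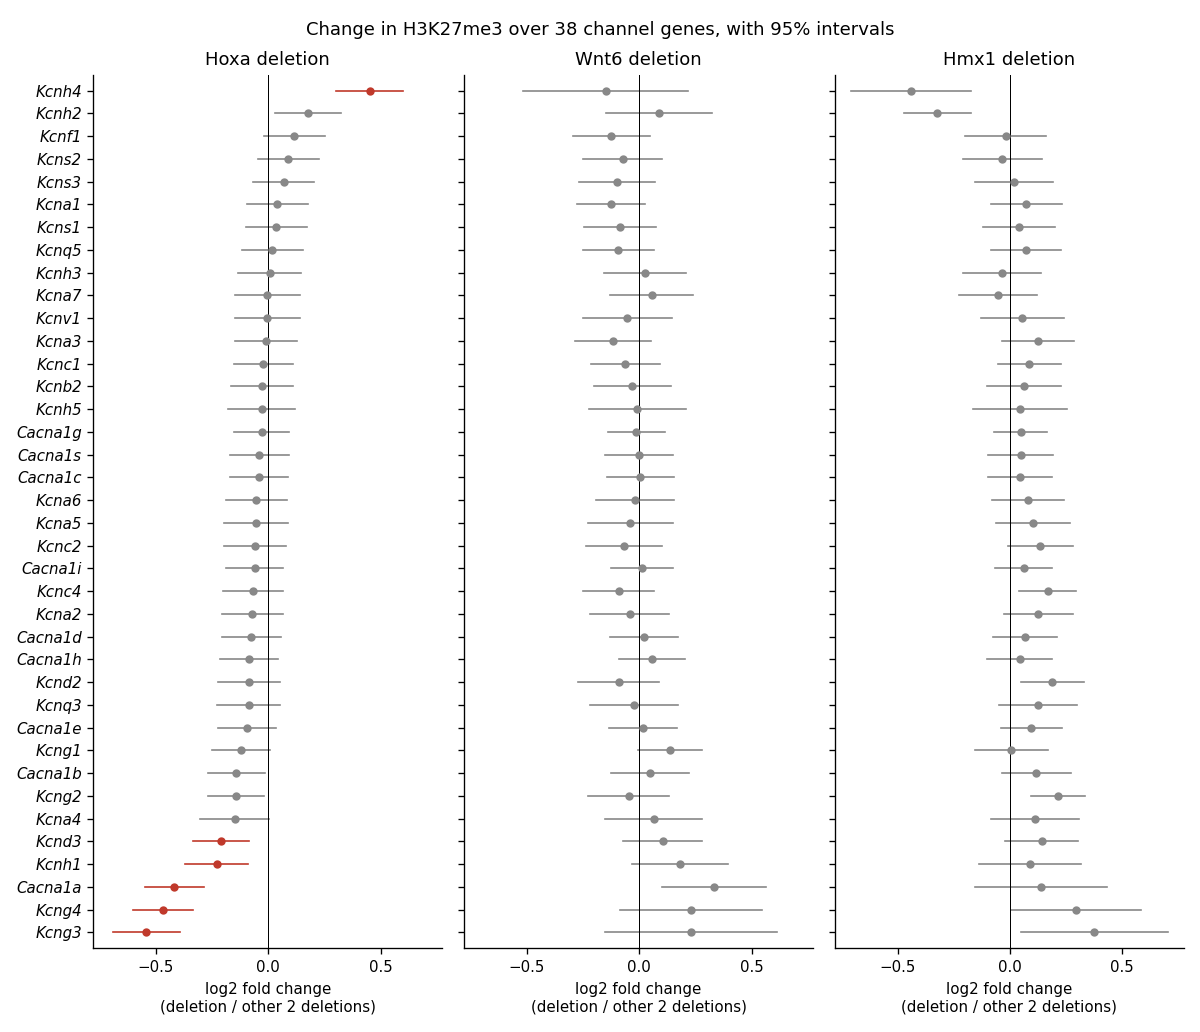
Each row is 1 of the 38 channel genes, ordered by its value in the Hoxa deletion, and each panel shows its log2 fold change in 1 deletion against the other 2 pooled (x axis) with the 95% interval as a line. Coloured genes passed an adjusted p of 0.05, which 6 did in the Hoxa deletion and 0 in each of the Wnt6 and Hmx1 deletions.

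Peak by peak, no channel peak in any deletion passed an adjusted p of 0.05 together with an absolute log2 fold change over 1, which 1.55% (Hoxa), 0.0497% (Wnt6) and 0.0282% (Hmx1) of all peaks did. At any fold, 24 of 327 channel peaks (7.34%) were called by edgeR in the Hoxa deletion, 21 lower and 3 higher, against 8.52% of all peaks. Of the 24, 14 were among the 35 channel peaks on chromosome 8. The share over all peaks of that chromosome was not computed, and 68.8% of the genes tested there were called. In the 27 genes with a matched start site, 3 of 27 start-site peaks were called at any fold, those of Kcng3, Kcng4 and Kcnh4. The share over start-site peaks of all genes was not computed. No channel peak was called at any fold in the other deletions. There, 25 (Wnt6, 7.65% against 5.20% of all peaks) and 28 (Hmx1, 8.56% against 8.96%) channel peaks had an unadjusted p under 0.05.

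In the Wnt6 deletion no channel gene was called by edgeR, and 1 (Cacna1a) had an unadjusted p under 0.05, which is 2.63% against 5.12% of all genes. Over all genes 0.0429% were called, and 0.0368% with an absolute log2 fold change over 1 as well. The median log2 fold change was -0.02 for channel genes and -0.04 for all genes. The 5 channel genes of chromosome 1, which carries this deletion, lie 52.8 to 117 Mb from the stretch and had log2 fold changes of -0.09 for Kcnq5, -0.03 for Kcnb2, -0.00017 for Cacna1s, 0.02 for Cacna1e and 0.18 for Kcnh1 (edgeR adjusted p 0.902 to 0.9996). The Hoxa libraries are part of the pool here, and 34 of 38 intervals lay within 0.5 of 0. Those reaching farther were Kcng3 (up to 0.61), Cacna1a (0.56), Kcng4 (0.54) and Kcnh4 (down to -0.52). All of these were called in the Hoxa deletion, and why their intervals are wide was not tested.

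In the Hmx1 deletion no channel gene was called by edgeR either, and 7 had an unadjusted p under 0.05, which is 18.4% against 13.9% of all genes. Over all genes 0.0858% were called, and 0.0245% with an absolute log2 fold change over 1 as well. The median log2 fold change was 0.07 for channel genes, -0.04 for all genes and 0.05 for the 3951 of similar level. The Hoxa libraries are part of this pool too, and their difference from the Wnt6 libraries counts as spread. With a term for each genotype 6 channel genes were called, against 1480 of 16313 genes tested.

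Kcnh2, the rapid delayed rectifier of the heart (hERG), is the only channel gene on chromosome 5, 11.03 Mb from the Hmx1 stretch. It had 303, 278 and 294 CPM in the Hoxa, 298.5 and 270.1 in the Wnt6 and 232 and 229.6 in the Hmx1 libraries. The Hmx1 libraries were the lowest and did not overlap the rest, and all 8 of its peaks had negative log2 fold changes. The gene's log2 fold change was -0.32 ± 0.07 (SE, 95% interval -0.47 to -0.18) and did not pass the test (edgeR adjusted p 0.0864). It passed in 6 of 22 alternative settings, such as DESeq2 (adjusted p 0.0101) and without Wnt6 replicate 2 (edgeR adjusted p 0.0237), over a range of 5.81e-06 to 0.712. Kcnh4 had the lowest log2 fold change here, -0.44 ± 0.12 (SE, edgeR adjusted p 0.167).

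**Figure D5:**
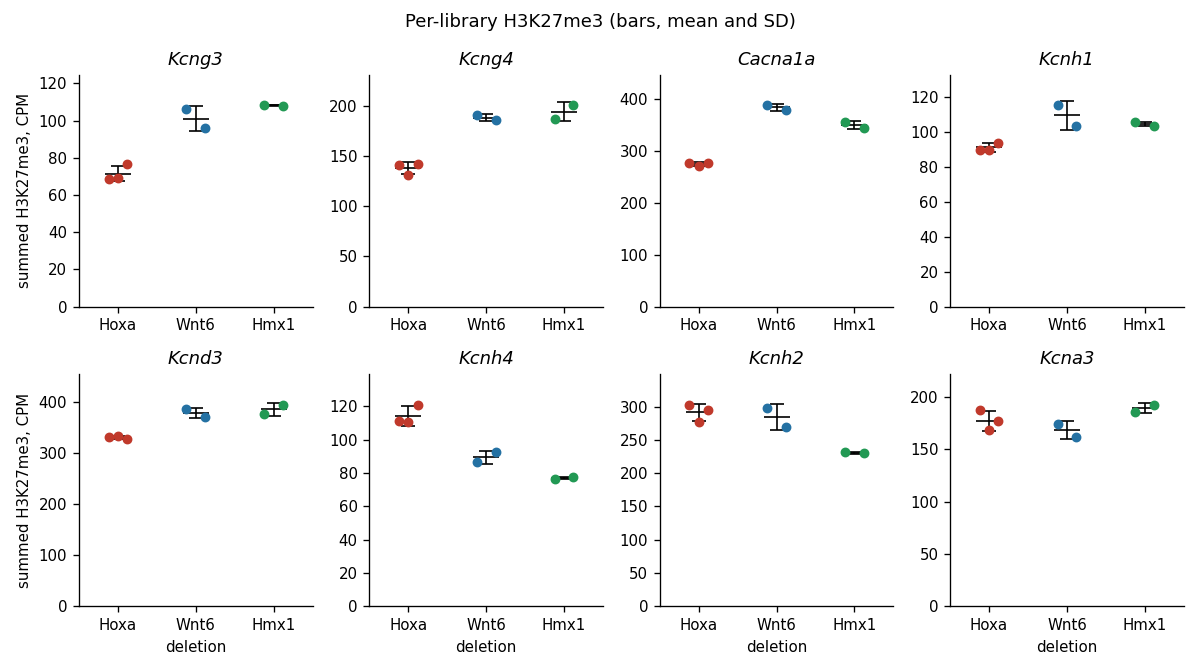
Summed CPM (y axis, from 0) of the 6 genes called in the Hoxa deletion, of Kcnh2 and of Kcna3 in each library (points) by deletion (x axis), with the mean and SD as bars. In the first 5 panels the 3 Hoxa libraries lie below the other 4, in Kcnh4 they lie above, in Kcnh2 the 2 Hmx1 libraries lie lowest, and Kcna3 shows overlapping Hoxa and Wnt6 libraries.

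The other genes of these channels had lower median levels per kb, given here with no test. The 38 channel genes were chosen with earlier results known, so this difference may follow from the choice. All 11 other Kv pore-forming genes had a peak (median 1.24 CPM per kb of gene span), as did all 13 Kv auxiliary genes (0.444) and all 16 Cav auxiliary genes (1.45), whereas 11 of 14 sodium channel genes did (1.40) and Scn2a, Scn3a and Scn7a had none. Cacna1f, the L-type channel of the retina, stood at 1.56 CPM per kb and was not called. In the Hoxa deletion 1 of the 11 Kv genes was called (Kcna10, lower) and 1 of 13 Kv auxiliary genes (Kcnab3, a beta subunit, higher). Of the Cav auxiliary genes 2 of 16 were called (Cacnb3, a beta subunit, higher, and Cacng6, a gamma subunit, lower). Of the sodium channel genes 1 of 11 was called (Scn1a, lower). Over all genes tested the share was 17.2%. Kcnab3 stood at 117, 114 and 100.01 CPM in the Hoxa libraries and 72.5 to 85.1 in the other 4, and Cacnb3 at 183 to 184 and 132 to 149.7. Kcnq1, which lies in an imprinted domain, had 818 CPM over its peaks and was not called (log2 fold change 0.04, edgeR adjusted p 0.678). No gene of these lists was called in the Wnt6 or Hmx1 deletion.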

How the data were processed

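The submitters' processing notes name Trimmomatic, Bowtie2, SAMtools, Picard, MACS2 and deepTools and the build mm10, with no versions, and the libraries were amplified by PCR. The authors deposited raw counts per peak over 1 shared list of 74458 peaks, unnormalized, for 7 H3K27me3 libraries. How the list was made, and whether reads or fragments were counted, is not given in the sources used here. If it was called on part of the libraries, their strong peaks are over-represented. The 7 IgG libraries were not analysed here, so no background was subtracted.

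Counts of peaks within 5 kb of a RefSeq gene body (GRCm38.p6) were summed per protein-coding gene. Genes and, separately, peaks were filtered with filterByExpr, scaled with TMM factors and tested with glmQLFit and glmQLFTest (edgeR 4.0.16, R 4.3.3), each deletion against the other 2 pooled, with Benjamini-Hochberg adjustment over all genes or peaks. The procedure was run on simulated counts with log2 fold changes of 1 and 2. Smaller changes, a shift of a whole chromosome and a difference between the pooled deletions were not simulated. SE came from the F statistic, and intervals cover the spread between libraries. A gene was called at an adjusted p under 0.05, a peak also at an absolute log2 fold change over 1, the study's thresholds. DESeq2 1.42.0 was an alternative. Plots used matplotlib 3.10.9.

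The members and all gene lists were chosen with earlier results of these data known. Values in every library were given for channel genes called in a comparison, those on chromosomes 6 and 8, and the 4 highest and 3 lowest per kb of gene span. Members on chromosomes 1 and 5 were given by their comparison's value. Kcnh2 and the split of the peaks within Kcnd3, Kcnh1 and Kcnh4 were chosen after their values were seen. Peak positions are as deposited, and whether the first base counts as 0 or 1 is not stated. Deviations of same-numbered libraries from their deletion's mean were weakly correlated (-0.0415 to 0.083), which cannot exclude that replicate numbers pair libraries. Totals went with the number, at 6016500 to 9982841 counts in replicates 1 and 25595584 to 36563541 in replicates 2. The labels name no batch. The main fits used no pairing, and a fit with the replicate number as a block is given below.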

Additional observations from a re-analysis of the deposited data

How the results depend on the processing

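The alternatives were other scalings, filters, windows, designs and tests, each other deletion alone and each library left out. In the Hoxa deletion 6 channel genes were called, and 21 of 24 alternatives gave a count within 1.5 times of it. The exceptions were 11 with DESeq2 and 11 against the Hmx1 deletion alone, where 2689 of 15047 and 3127 of 16309 genes tested were called. The count was 0, against 87 of 16313 genes tested, with an absolute log2 fold change over 1 as well. An equal count did not always mean the same genes. With the median of each chromosome removed it was again 6, against 2031 of 16313 genes tested, but Cacna1b and Kcng2 took the place of Kcng4 and Cacna1a. Cacna1b and Kcng2 were also called with DESeq2, with library totals alone and against the Hmx1 deletion alone. Leaving out 1 library gave 5 to 9. Kcng4 (log2 fold change 0.0192) and Cacna1a (0.073) reversed with the median of each chromosome removed, and Kcng3 was called in all 22. With the replicate number as a block, 5 channel genes were called in the Hoxa deletion, against 2305 of 16313 genes tested. Kcnd3 was lost there (edgeR adjusted p 0.0641), and 0 channel genes were called in each of the other deletions.

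For channel peaks past both thresholds the count was 0 in each deletion. In the Hoxa deletion it was 1 against the Wnt6 deletion alone, 1 against the Hmx1 deletion alone, 0 to 2 with 1 library left out (1 without Hmx1 replicate 2, 2 without Hoxa replicate 2) and 24 with no minimum fold. In the Wnt6 and Hmx1 deletions it was 1 against the Hoxa deletion alone, which are the same libraries as one of the former comparisons each.

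In the Wnt6 deletion 0 channel genes became 1 with a term for each genotype, where 469 of 16313 genes tested were called. Against the Hoxa deletion alone 0 became 5, where 2103 of 16310 were called. In the Hmx1 deletion 0 became 3 with DESeq2 (396 of 10304 genes tested) and 6 with a term for each genotype (1480 of 16313). It became 1 with abundance-dependent offsets (29 of 16313) and with library totals alone (92 of 16313). Against the Hoxa deletion alone it became 11 (3127 of 16309). It was 1 without Wnt6 replicate 2 and 0 without Wnt6 replicate 1 or any 1 Hoxa library. The median log2 fold change of channel genes in the Hoxa deletion was -0.05, and the alternatives ran from -0.113 (DESeq2; -0.111 with chromosome medians removed) to -0.0123 (against the Wnt6 deletion alone), with -0.0267 at the high end when 1 library was left out (Hmx1 replicate 2). In the Wnt6 deletion it ran from -0.0795 without Wnt6 replicate 1 to 0.0425 without Wnt6 replicate 2. The causes were not tested. In the settings that leave the Wnt6 or Hmx1 deletion 1 library, that library is assumed to vary like the others. Counting the channel genes without those on chromosome 8 was chosen after seeing the data. With 2 libraries in 2 of the deletions, small changes may go undetected.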
